A study of Mus musculus with 6 samples.

Results

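The genes described here are 45 that copy DNA or work in S phase, the part of the cell cycle in which the genome is duplicated. They were chosen by name from the array's gene labels. The selection rule used no measured values, but earlier results of these data were known when it was made. All 45 were found on the array, with 83 probes between them. Of these, 44 were bright enough to be tested (well above background in all 3 tumours of either genotype), among 19756 features in all. The remaining member, Ccne2, which encodes cyclin E2, was above background on 2 of 3 arrays of each genotype and is given only as values.

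The samples were 6 skin tumours of male mice, measured on 1-colour Agilent arrays: 3 from animals given as P2ry6+/+ (wild-type) and 3 from animals given as P2ry6-/- (without the gene of a receptor for uridine diphosphate, here called knockout). Both genotypes, 12 mice each, had received 195 nmol of the mutagen DMBA in 200 uL of acetone on the back, and then TPA, which promotes tumour growth, at 16 nmol per application, 2 times a week up to week 22. Age, strain, tumour grade and the way the gene was removed are not given in the sources used here, nor is it said that each tumour came from a different mouse, and p-values then reflect only how far these samples differ among themselves, which may be technical. The comparison asks whether tumours with and without the receptor gene differ in expression. "Wild-type" and "knockout" below are the labels of the tumours.

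The targeted gene itself, P2ry6, did not read lower in the knockout tumours. The probe taken for it read 0.38, 0.33 and -0.21 in wild-type tumours 1, 2 and 3 and 0.57, 0.70 and 0.45 in knockout tumours 1, 2 and 3, a difference of 0.41 (SE 0.20, limma adjusted p = 0.450). Its other probe past the filter read -0.93, -1.15 and -1.65 against -0.95, -0.70 and -0.45, a difference of 0.54 (limma adjusted p = 0.411 over all probes tested). The labels do not say whether either probe lies in the deleted part. These and all levels below are log2 signals relative to the 75th percentile of the same array, where 0 is that percentile, and differences are knockout minus wild-type on the log2 scale. Between 54.2% and 59.4% of spots per array were well above background. All arrays lay on 1 slide: wild-type tumours 1 and 2 in row 1, wild-type tumour 3 and knockout tumour 1 in row 2, and knockout tumours 2 and 3 in row 3.

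Replication starts from origins that are licensed in G1, when the origin recognition complex, Cdc6 and Cdt1 load the Mcm2 to Mcm7 ring onto DNA. In S phase Cdc45 and the GINS complex turn the ring into an active helicase, and polymerases copy both strands with the help of the sliding clamp Pcna. Transcription of most of these genes is driven by E2F factors when cells leave G1, and in skin their RNA is found mainly in the dividing basal keratinocytes and their tumour counterparts.

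E2F factors bind DNA at motifs in the start regions of such genes, so the promoters were searched for 4 forms of the motif, TTTCCCGC, TTTGGCGC, TTTCGCGC and TTTGCCGC, on both strands. The windows ran from 250 bases before to 50 bases after each start site in the RefSeq table of build GRCm38.p6, which held 38 members. Of these, 16 (42.1%) had a match, against 2.61% of the 27025 genes in the table. By motif, TTTCGCGC was present in 9 members (0.374% of all genes), TTTGGCGC in 7 (0.585%), TTTCCCGC in 6 (1.24%) and TTTGCCGC in 0 (0.507%). The following 6 stretches of 60 bases show where the matches lie in genes described below, written 5′ to 3′ on the gene's strand with the matches in capitals.

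Mcm5, chr8:75109332-75109391, plus strand: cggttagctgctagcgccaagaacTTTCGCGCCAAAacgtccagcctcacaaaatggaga
Mcm6, chr1:128359780-128359839, minus strand: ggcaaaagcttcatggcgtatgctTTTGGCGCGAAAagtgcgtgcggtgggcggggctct
Mcm7, chr5:138172015-138172074, minus strand: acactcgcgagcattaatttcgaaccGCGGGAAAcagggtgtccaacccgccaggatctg
Cdc6, chr11:98907987-98908046, plus strand: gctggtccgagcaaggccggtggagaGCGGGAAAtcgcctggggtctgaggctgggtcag
Orc1, chr4:108579394-108579453, plus strand: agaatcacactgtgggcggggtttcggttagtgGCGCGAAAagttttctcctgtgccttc
Pola1, chrX:93632260-93632319, minus strand: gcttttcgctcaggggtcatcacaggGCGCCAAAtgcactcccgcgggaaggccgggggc

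In Mcm5 and Mcm6 a TTTCGCGC and a TTTGGCGC match on opposite strands share 4 bases, while Mcm7, Cdc6, Orc1 and Pola1 show a single match in these stretches, read on the opposite strand. A match is a run of letters and not a measured binding site. Members with a match had a median difference between genotypes of -0.27 (14 of 16 below 0), and the 22 members in the table without one had -0.33 (21 of 22 below 0).

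Most replication genes were somewhat lower in the knockout tumours, and none of the 44 passed the adjusted threshold. The difference lay below 0 for 41 of 44 members, against 47.9% of all features tested, with a median of -0.29 for the members and 0.017 for all features. The members ran from -0.57 to 0.21. At an adjusted p under 0.05 (limma, Benjamini-Hochberg over all features), 0 members were called, where 0.162% of all features were. At an unadjusted p under 0.05, 3 members were lower (Pold2, Tyms and E2f1), or 3 of 44 against 5.36% of all features, and 0 were higher, against 7.87%. Every knockout tumour lay below every wild-type tumour for 2 members, Tyms and E2f1, against 7.35% of all features, and every knockout tumour lay above for 0, against 12.2%. The shares of members called at these thresholds were near or below those of all features. The members were chosen with earlier results of these data known, and replication genes rise and fall together, so these counts describe the list and are not separate tests.

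**Figure D1:**
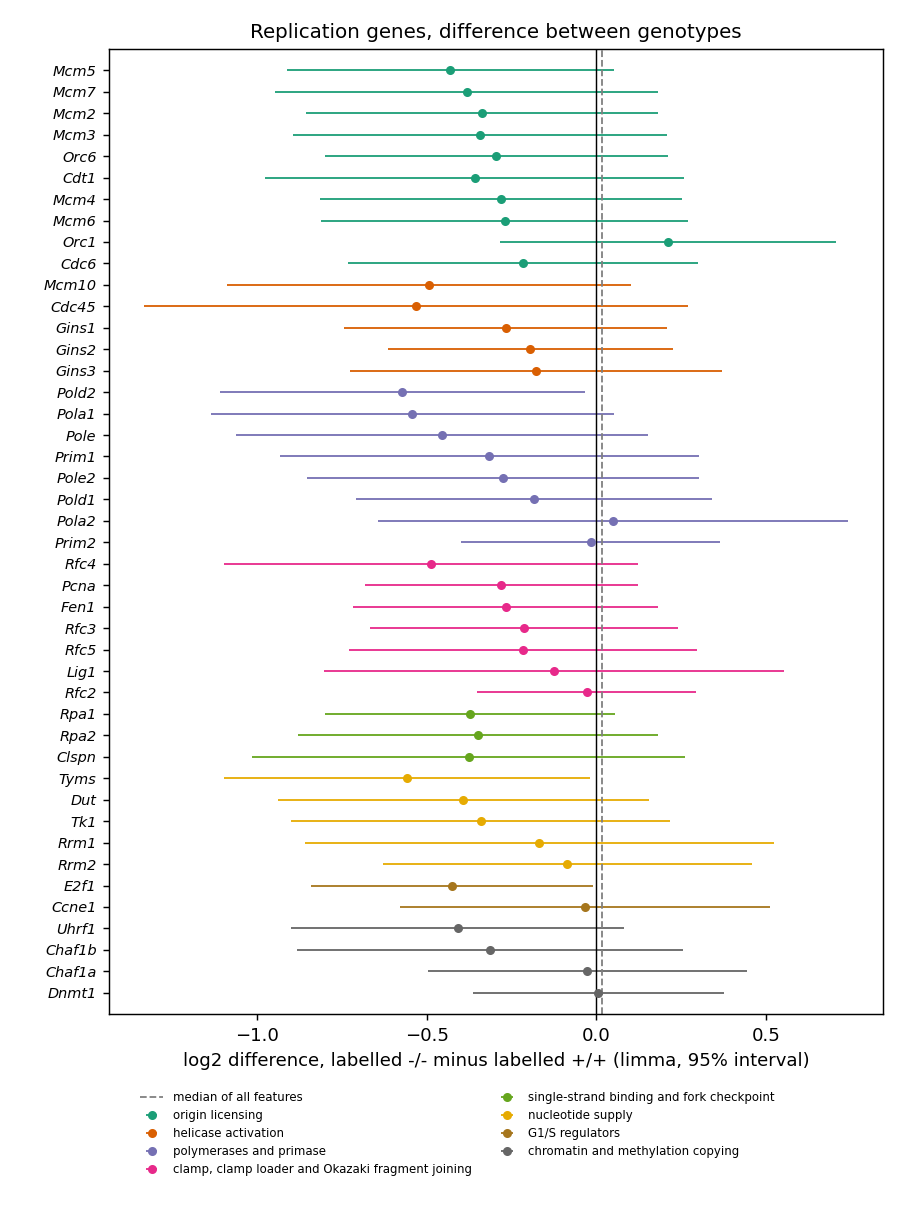
Log2 difference of each of the 44 tested replication genes, labelled -/- minus labelled +/+, with the 95% interval of the limma fit, coloured by role (3 tumours per genotype). Points of 41 genes lie left of 0, and the intervals of all but Pold2, Tyms and E2f1 include 0.

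Knockout tumour 1 differed from the other knockout tumours by more than the median gap between genotypes. It read higher than knockout tumour 2 in 44 of 44 members, by a median of 0.58, and higher than knockout tumour 3 in 44 of 44, by a median of 0.43. Over all features the corresponding shares were 51.5% and 53.8%. Knockout tumours 2 and 3 were closer to each other, with tumour 3 higher in 32 of 44 members by a median of 0.19 over all 44. Measured against the mean of the wild-type tumours, the median member stood at 0.017 in knockout tumour 1, at -0.54 in knockout tumour 2 and at -0.37 in knockout tumour 3.

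Knockout tumour 2 lay below all 3 wild-type tumours in 40 members (25.3% of all features) and knockout tumour 3 in 31 (24.4%). Knockout tumour 1 lay below them in 2 members (19%), within their range in 32 (52.6%) and above it in 10 (28.4%). The lowest of the 6 readings was in knockout tumour 2 for 31 members (16.2% of all features) and in knockout tumour 3 for 12 (12.7%). The highest was in wild-type tumour 3 for 24 members (22.3% of all features) and in knockout tumour 1 for 10 (16.6%). Tumours of 1 genotype are not ordered, and these ranks describe single arrays.

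**Figure D2:**
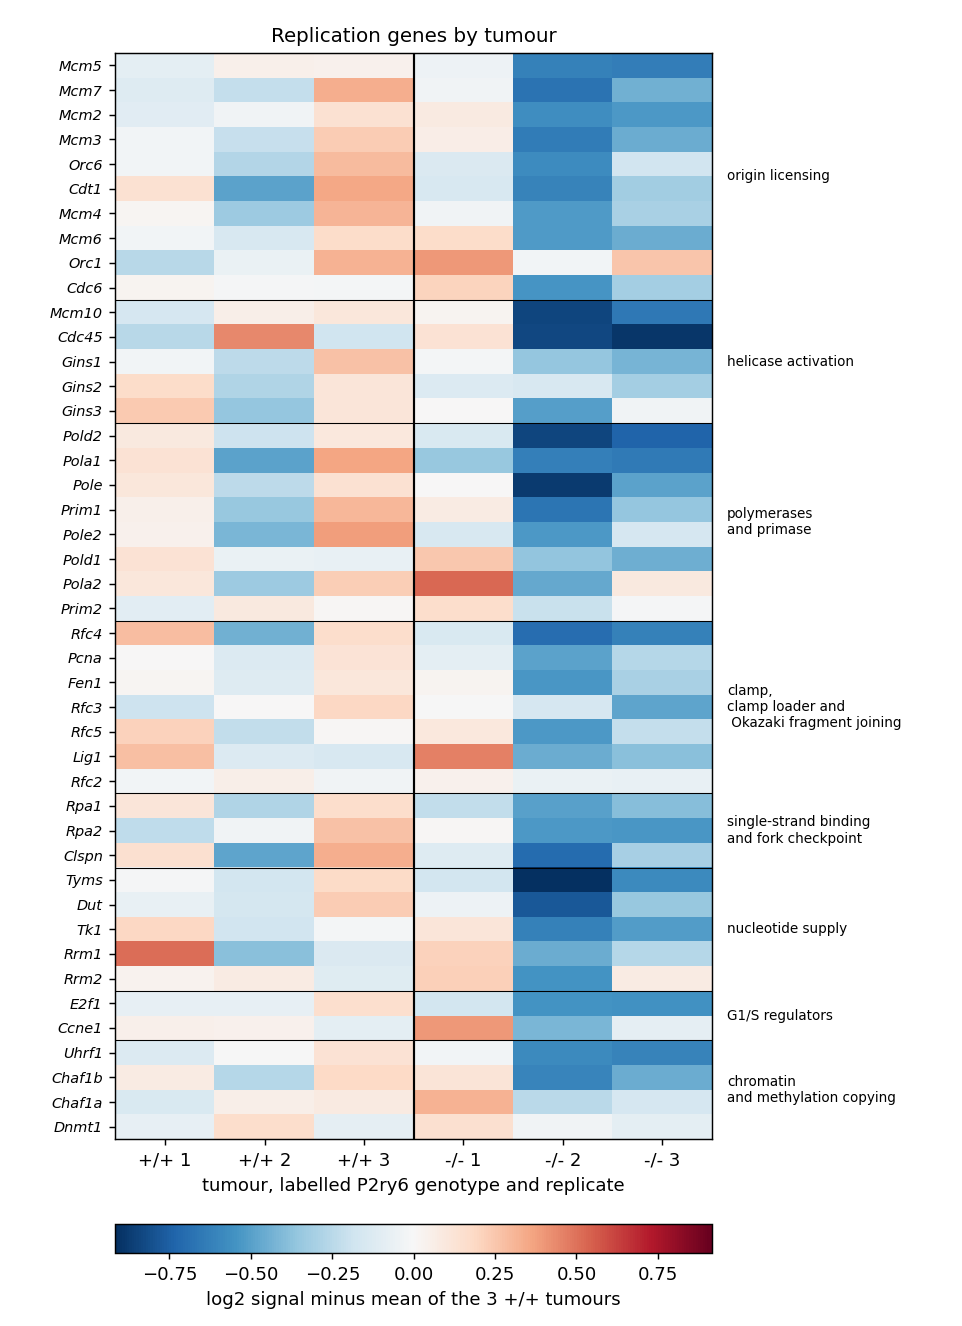
Log2 signal of each tested replication gene in each tumour, minus the mean of the 3 labelled +/+ tumours, with genes grouped by role and the vertical line separating genotypes. Columns -/- 2 and -/- 3 are blue for most genes, with medians of -0.54 and -0.37, while column -/- 1 stands near the +/+ tumours with a median of 0.017.

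The knockout tumours with the lower readings were also the arrays of slide row 3, which held no wild-type array, so place on the slide and these readings cannot be told apart. In row 2, which held wild-type tumour 3 and knockout tumour 1, 28 of 44 members were lower in the knockout tumour (48.4% of all features), with a median difference of -0.12. Within slide column 1 (1 wild-type and 2 knockout arrays) 27 of 44 were lower (40% of all features), with a median of -0.081 against 0.091 for all features. Within column 2 (2 wild-type and 1 knockout array) 41 of 44 were lower (52.1% of all features), with a median of -0.50 against -0.020 for all features.

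Among the 10 genes that license origins, 9 had a difference below 0, with a median of -0.32, and 0 passed the threshold. Mcm5, a subunit of the helicase ring whose probe lies on chromosome 8 from 77651350 to 77651410 (mm9), read 2.77, 2.91 and 2.90 in wild-type tumours 1, 2 and 3 and 2.82, 2.24 and 2.23 in knockout tumours 1, 2 and 3. Knockout tumour 1 was inside the wild-type range and the other two were below it. The difference was -0.43 (SE 0.20, limma adjusted p = 0.423; 95% interval -0.91 to 0.051), and a two-sided exact permutation test gave p = 0.2, where 0.1 is the smallest p that 3 against 3 allows.

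Mcm7, another ring subunit, read 3.80, 3.69 and 4.25 in the wild-type tumours and 3.88, 3.23 and 3.47 in the knockout tumours, which differ by -0.38 (SE 0.24, adjusted p = 0.543). Mcm2 read 1.29, 1.37 and 1.53 against 1.48, 0.83 and 0.87, a difference of -0.34 (SE 0.22, adjusted p = 0.557). In both genes knockout tumour 1 overlapped the wild-type tumours and knockout tumours 2 and 3 did not. The other ring genes Mcm3, Mcm4 and Mcm6 differed by -0.34, -0.28 and -0.27, the loading factor Cdt1 by -0.36, Cdc6 by -0.22 and the origin recognition subunit Orc6 by -0.29.

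Orc1, the largest subunit of the origin recognition complex, was the licensing gene on the other side of 0. It read -1.30, -1.12 and -0.74 in the wild-type tumours and -0.65, -1.08 and -0.79 in the knockout tumours, and the difference was 0.21 (SE 0.21, limma adjusted p = 0.715; 95% interval -0.29 to 0.70). The genotypes overlapped. Its other 2 probes also had differences above 0, of 0.27 and 0.77, and the probe with the larger one read -3.48, -3.13 and -3.64 against -2.32, -3.07 and -2.53, with no overlap (limma adjusted p = 0.295 over all probes tested). Orc1 stayed above 0 in all 18 alternative settings, from 0.082 to 0.42, and was past the threshold in none.

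The 5 genes that activate the helicase all had differences below 0, with a median of -0.27. Mcm10, which helps fire the loaded helicase, read 1.58, 1.78 and 1.84 in the wild-type tumours and 1.75, 0.89 and 1.07 in the knockout tumours, so that they differed by -0.49 (SE 0.25, limma adjusted p = 0.454). Cdc45, part of the active helicase, read -3.17, -2.48 and -3.11 against -2.79, -3.76 and -3.81, a difference of -0.53 (SE 0.34, adjusted p = 0.551). That value was -0.051 with normexp background correction and -0.24 as the mean over its probes, and the other probe read 0.042. On the probes taken for both genes, knockout tumours 2 and 3 were the lowest readings and knockout tumour 1 was not. The GINS subunits Gins1, Gins2 and Gins3 differed by -0.27, -0.19 and -0.18.

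Of the 8 polymerase and primase genes, 7 had differences below 0, with a median of -0.30. Pold2, the accessory subunit of lagging-strand polymerase delta (probe on chromosome 11 from 5772194 to 5772252, mm9), had the smallest p of all members. It read 3.04, 2.76 and 3.05 in the wild-type tumours and 2.81, 2.11 and 2.22 in the knockout tumours, a difference of -0.57, or 0.673-fold (SE 0.22, limma adjusted p = 0.357; unadjusted p = 0.0401). Knockout tumour 1 lay above wild-type tumour 2, so the genotypes overlapped, and the exact permutation p was 0.2.

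Pola1, the catalytic subunit of the polymerase that lays down primers, read 1.16, 0.53 and 1.38 in the wild-type tumours and 0.68, 0.40 and 0.37 in the knockout tumours, so that they differed by -0.54 (SE 0.25, limma adjusted p = 0.416). Here wild-type tumour 2 was close to the knockout tumours, and a second probe of Pola1 differed by -0.51. Pole, the catalytic subunit of leading-strand polymerase epsilon, read 1.87, 1.52 and 1.90 against 1.77, 0.89 and 1.28, a difference of -0.45 (SE 0.26, adjusted p = 0.505), or -0.21 as the mean over its probes. Of the primase genes, Prim1 differed by -0.32 (95% interval -0.93 to 0.30) and Prim2 by -0.017 (95% interval -0.40 to 0.36), and these intervals overlap. Pola2, the partner of Pola1, read -1.17, -1.61 and -1.05 against -0.75, -1.74 and -1.19, a difference of 0.048 (SE 0.29, adjusted p = 0.962).

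All 7 genes of the clamp, its loader and the joining of Okazaki fragments had differences below 0, with a median of -0.22. Rfc4, a subunit of the clamp loader, read 2.58, 1.86 and 2.47 in the wild-type tumours and 2.16, 1.60 and 1.69 in the knockout tumours, so that they differed by -0.49 (SE 0.26, limma adjusted p = 0.474), and its 2 other probes differed by -0.44 and -0.55. Pcna, the sliding clamp, read 4.54, 4.41 and 4.66 against 4.45, 4.05 and 4.28, a difference of -0.28 (SE 0.17, adjusted p = 0.533). Fen1, the nuclease that trims Okazaki fragments, read 3.29, 3.16 and 3.37 against 3.30, 2.74 and 2.98, a difference of -0.27 (SE 0.19, adjusted p = 0.594).

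Another loader subunit, Rfc2, was the steadiest of these genes, with readings from 3.06 to 3.18 over the 6 tumours and a difference of -0.029 (95% interval -0.35 to 0.29). Rfc3 and Rfc5 differed by -0.21 and -0.22, and the ligase gene Lig1 by -0.12.

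The genes that coat single-stranded DNA, Rpa1 and Rpa2, and the checkpoint mediator Clspn differed by -0.37, -0.35 and -0.38. Rpa1 read 3.83, 3.45 and 3.88 in the wild-type tumours and 3.49, 3.22 and 3.33 in the knockout tumours (SE 0.18, limma adjusted p = 0.435). Rpa2 read -0.85, -0.65 and -0.35 against -0.60, -1.14 and -1.15 (SE 0.22, adjusted p = 0.554). Knockout tumour 1 overlapped the wild-type tumours in both genes.

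The 5 genes of nucleotide supply had differences below 0, with a median of -0.34. Tyms, thymidylate synthase, which makes the thymidine nucleotide, read 2.70, 2.55 and 2.90 in the wild-type tumours and 2.55, 1.80 and 2.13 in the knockout tumours. The genotypes did not overlap, although knockout tumour 1 and wild-type tumour 2 were almost equal. The difference was -0.56, or 0.68-fold (SE 0.23, limma adjusted p = 0.368; unadjusted p = 0.0446; exact permutation p = 0.1, the smallest possible here), and its other probes differed by -0.41 and -0.58.

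Dut, which keeps uracil out of DNA, read 1.23, 1.13 and 1.52 against 1.25, 0.52 and 0.95, a difference of -0.39 (SE 0.23, limma adjusted p = 0.519), or -0.11 as the mean over its probes. Thymidine kinase, Tk1, differed by -0.34. The ribonucleotide reductase subunits had smaller values, -0.17 for Rrm1 and -0.086 for Rrm2 (95% interval -0.63 to 0.46).

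Of the regulators of the G1 to S transition, E2f1, an E2F factor that drives S-phase transcription, read 0.10, 0.10 and 0.33 in the wild-type tumours and 0.0089, -0.37 and -0.37 in the knockout tumours. The genotypes did not overlap. The difference was -0.42, or 0.745-fold (SE 0.17, limma adjusted p = 0.371; unadjusted p = 0.0461; exact permutation p = 0.1, the smallest possible here). Ccne1, cyclin E1, which activates the kinase that starts S phase, read 2.76, 2.76 and 2.63 against 3.12, 2.30 and 2.64, so that knockout tumours 1 and 2 were the highest and the lowest of all, and the difference was -0.033 (SE 0.23, adjusted p = 0.968). Ccne2, measured too weakly to be tested, read -3.68, -5.17 and -3.08 against -3.75, -3.24 and -3.22, where the readings of wild-type tumour 2 and knockout tumour 1 were not above background.

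The 4 genes that copy chromatin and DNA methylation onto new strands had a median difference of -0.17. Uhrf1, which recognises hemimethylated DNA, read 3.37, 3.49 and 3.63 in the wild-type tumours and 3.47, 2.91 and 2.88 in the knockout tumours, so that they differed by -0.41 (SE 0.21, limma adjusted p = 0.452). Its partner Dnmt1, the methyltransferase that restores the marks, read 1.03, 1.27 and 1.03 against 1.25, 1.08 and 1.02, a difference of 0.0063 (95% interval -0.36 to 0.38). The chromatin assembly subunit Chaf1b read 3.03, 2.70 and 3.14 against 3.07, 2.35 and 2.50, a difference of -0.31 (SE 0.24, adjusted p = 0.624), and its partner Chaf1a differed by -0.027.

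Several members were read by more than 1 probe. The 44 tested genes had 38 further probes, of which 31 passed the filter on dim probes. In 23 of these the difference had the sign of the probe taken, and in 8 it had the other sign, in Cdc45, Cdc6, Dut, Lig1, Pole, Pole2 and Rfc5. Among these 8, the 4 probes farthest from the one taken read 0.40 against -0.28 in Pole2, 0.042 against -0.53 in Cdc45, 0.17 against -0.39 in Dut and 0.36 against -0.12 in Lig1. For Tyms, Mcm3, Mcm7, Mcm10, Pola1, Rfc4 and Uhrf1 every probe that passed the filter had a difference below 0.

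**Figure D3:**
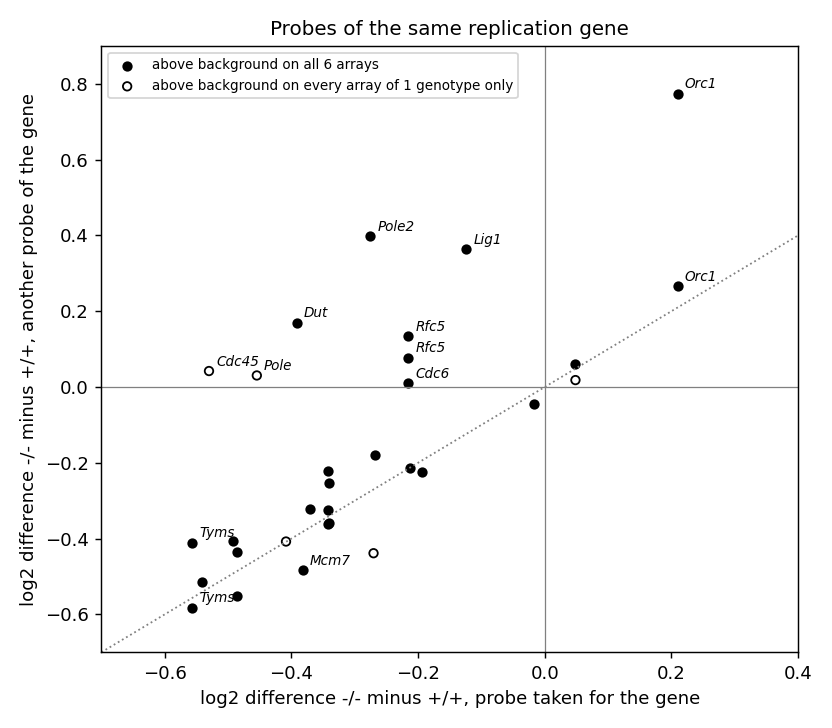
Log2 difference (-/- minus +/+) of the probe taken for a gene against that of each other probe of the same gene that passed the filter, with the dotted line marking equal values. Of the 31 points, 23 have the same sign on both axes, and 8 lie at the upper left, where only the other probe has a difference above 0.

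Most other genes of the pathway also had differences below 0. Of 31 further replication genes, 27 had a difference below 0, with a median of -0.22. At an unadjusted p under 0.05, 5 of 31 were lower (5.36% of all features) and 0 higher (7.87%), and 0 passed the adjusted threshold. The smallest p values belonged to the single-strand binding subunit Rpa3 with -0.48 (SE 0.17, limma adjusted p = 0.318), the origin recognition subunit Orc2 with -0.48 (SE 0.18, adjusted p = 0.344) and the clamp unloader Atad5 with -0.52 (SE 0.20, adjusted p = 0.349).

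Of 28 other S-phase genes, 26 had a difference below 0, with a median of -0.30, and 4 of 28 were lower at an unadjusted p under 0.05 (5.36% of all features), 0 higher (7.87%) and 0 past the adjusted threshold. Leading them were the recombination cofactor Rad51ap1 with -0.54 (SE 0.20, limma adjusted p = 0.331), E2f2, another E2F factor, with -1.03 (SE 0.40, adjusted p = 0.356) and the repair gene Brca1 with -0.59 (SE 0.23, adjusted p = 0.356). Slbp, which binds histone mRNA, lay on the other side with 0.39.

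Genes of mitosis placed the same tumours lowest. The members averaged 1.99, 1.81 and 2.10 in wild-type tumours 1, 2 and 3 and 2.02, 1.45 and 1.62 in knockout tumours 1, 2 and 3, which is 1.97 ± 0.14 against 1.69 ± 0.29 (SD, n = 3 each). The 18 mitosis genes averaged 2.16, 2.01 and 2.11 against 2.20, 1.49 and 1.60. In both lists knockout tumour 2 was the lowest, followed by knockout tumour 3 and wild-type tumour 2, while the order of the other tumours differed. In whole tumours, fewer dividing cells and less of these RNAs per cell cannot be told apart.

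**Figure D4:**
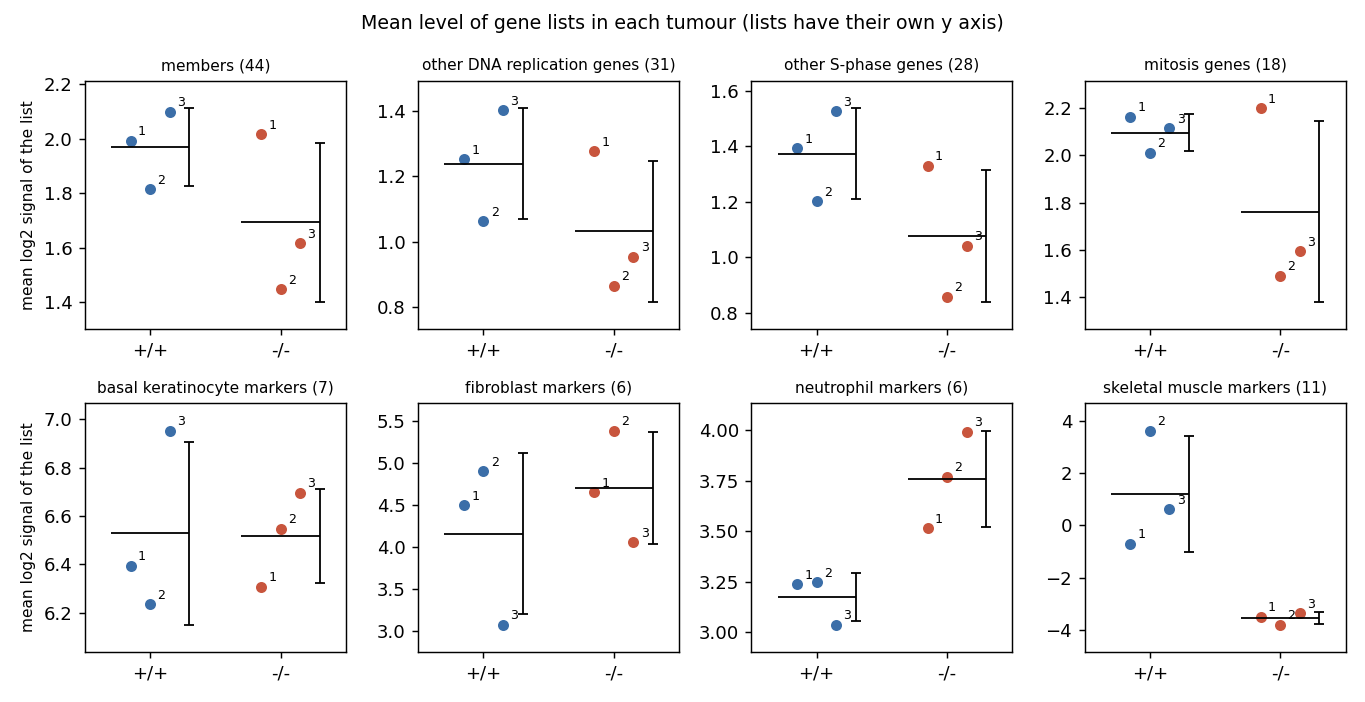
Mean log2 signal of 8 gene lists in each tumour (points numbered by replicate, horizontal lines for the mean and bars for the SD of 3 tumours per genotype), each list on its own axis. The members, the other replication and S-phase genes and the mitosis genes place -/- 2 and -/- 3 lowest, while the neutrophil list is higher and the muscle list lower in every -/- tumour.

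Markers of other cell types also differed between the tumours, and their part in the values above was not tested. Keratinocyte genes were present, with 7 of 7 basal and 8 of 9 differentiation markers past the filter on dim probes (Flg was not). The basal list averaged 6.39, 6.24 and 6.95 in the wild-type tumours and 6.31, 6.55 and 6.70 in the knockout tumours, with 5 of 7 higher, and the differentiation list 5.58, 5.52 and 5.06 against 6.18, 6.05 and 5.88, with 6 of 8 higher. Knockout tumour 1 had the lowest basal and the highest differentiation value of its genotype. Some lists for other cells in skin differed by far more than the members did. The median difference was -3.62 for adipocyte markers (7 of 9 tested below 0, 2 past the adjusted threshold). It was -5.11 for hair follicle markers (8 of 9) and -2.45 for sebaceous markers (7 of 7), with 0 past the threshold in either list. Cfd, Retn and Adipoq of the adipocyte list and Mc5r of the sebaceous list were above background in no knockout tumour. They passed the filter through the wild-type tumours alone, so their direction follows from the filter. The genotypes overlapped in the hair follicle list, which averaged 2.23, 3.76 and -0.52 against -2.82, 0.051 and -2.51. The median difference was 0.022 for macrophage (3 of 7 below 0), 0.22 for T cell (1 of 5) and -0.17 for endothelial markers (3 of 4).

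The fibroblast list (6 of 6 genes with a difference above 0) averaged 4.50, 4.91 and 3.07 in the wild-type tumours and 4.65, 5.39 and 4.05 in the knockout tumours. Its lowest value was in wild-type tumour 3, where most members were highest, and its highest in knockout tumour 2, where most were lowest. Not all tumours followed this order, as knockout tumour 3 was below wild-type tumour 1 for both the fibroblast list and the members (1.62 against 1.99). The neutrophil list (6 of 6 above 0) averaged 3.24, 3.25 and 3.04 against 3.52, 3.77 and 3.99. The muscle list (11 of 11 tested below 0, with a median difference of -4.47) averaged -0.69, 3.64 and 0.63 against -3.50, -3.80 and -3.36, with Tnnc2, Myh4, Myh2, Ckm and Actn3 not above background in any knockout tumour. Muscle RNA was highest in wild-type tumour 2, the wild-type tumour with the lowest mean of the members. The lowest muscle mean was in knockout tumour 2, which had the lowest mean of the members of all tumours. The muscle means of the knockout tumours rest partly on readings not above background, so their order carries little meaning. Any link between muscle RNA and the members was not tested.

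The count of members at an unadjusted p under 0.05 depended on single tumours. It was 16 of 44 without knockout tumour 1, where 5.32% of all features were lower at that threshold, and 7 of 44 without wild-type tumour 2, where 8.15% were. It was 0 without wild-type tumour 1 (4.58% of all features), wild-type tumour 3 (4.59%), knockout tumour 2 (3.78%) or knockout tumour 3 (3.65%). In each of these fits 0 members passed the adjusted threshold. The median difference of the members was -0.44 without knockout tumour 1 and -0.18 without knockout tumour 2.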

How the data were processed

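RNA of 6 skin tumours was measured on 1-colour Agilent arrays, 3 per labelled genotype. Spot intensity was deposited by the authors on a linear scale, background-subtracted and detrended, with surrogate values for dim spots, per the file headers; the program was Agilent's Feature Extraction, version 10.7.1.1 per the submitters' processing notes. A deposited table of log2 values, normalized by the authors between arrays in a way not given in the sources used here, was an alternative. It correlated with the arrays at r = 0.99945 to 0.99997, with column medians of 4.97 and no centring of genes.

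The processed signal was scaled to the 75th percentile of its own array (56605 probes other than controls) and put on the log2 scale. Outlier spots (68 to 184 per array) were dropped, repeated spots averaged, and 0 spots were saturated. The filter on dim probes kept 29728 that were well above background in all 3 tumours of either genotype. The brightest probe stood for a gene, which gave 19756 features. Members were found by the array's gene name. Other features were named through the RefSeq table of GRCm38.p6 (32994 probes by accession, 10224 by symbol, 523 by synonym, 12864 by the array's own name). Probe coordinates are mm9, per the file headers, and promoters are GRCm38.p6.

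Genotypes were compared with limma 3.58.1 (lmFit and eBayes, R 4.3.3, package data.table at version 1.17.8); tests were two-sided, and p-values were adjusted over all features by Benjamini-Hochberg, with a threshold of 0.05. Intervals are 95%. The fit was run on simulated data with independent noise and shifts larger than the difference of any member. That run does not measure how well differences of the size seen here are found. The number of arrays limits the precision. The members, lists and roles were chosen with earlier results of these data known. Genes given in full were those with the smallest p in each role (up to 2, or 3 in roles of 7 or more), the member of each role with the largest difference of the other sign, and 3 genes in each of the further replication and S-phase lists; other members are given by their difference, and remarks on lists or single readings were chosen after their values were seen. Alternatives were normexp for the background (offset 50), quantile normalization, centring on the median, dropping the filter, requiring signal above background in all 6 tumours, averaging the probes of a gene, trend and robust eBayes, array weights, the deposited table, replicate number or slide column as a block, and each tumour left out on the same features; slide row as a block was added after seeing the data.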

Additional observations from a re-analysis of the deposited data

How the results depend on the processing

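Across 18 alternative settings, 0 members passed the adjusted threshold in either direction, and 0 were higher at an unadjusted p under 0.05. The number of members with a difference below 0 stayed between 36 and 43 of those tested in all but the fit with slide row as a block, where it was 28. Rows 1 and 3 each held 1 genotype. The differences of that fit are therefore those of row 2 given above, knockout tumour 1 minus wild-type tumour 3, which is 1 tumour against 1. The median difference of the members lay between -0.44 and -0.12, that of the other replication genes between -0.34 and -0.12 and that of the other S-phase genes between -0.43 and -0.19. The number of members lower at an unadjusted p under 0.05 was 3 in the main fit (5.36% of all features). It was 4 with normexp (4.61%), 2 with trend and robust eBayes (5.27%), 10 with array weights (8.33%) and 1 with slide column as a block (5.5%). When 1 tumour was left out it lay between 0 and 16, with the shares given above. The fit with slide row as a block is not counted here, since it compares 1 tumour with 1. The cause was not tested. With no filter on dim probes the median of all features was 0.19, against 0.017, and that of the members -0.28.

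Among named members the sign turned for Dnmt1, Pola2, Ccne1 and Cdc45 in some settings. For Dnmt1 it was -0.036 with median centring and -0.059 with slide column as a block, and between -0.062 and 0.087 when 1 tumour was left out. For Pola2 it was -0.075 with array weights, and between -0.19 and 0.31 when 1 tumour was left out. For Ccne1 it was 0.49 with slide row as a block, and between -0.25 and 0.16 when 1 tumour was left out. For Cdc45, at -0.53, it was 0.32 with slide row as a block and -0.051 with normexp. With slide row as a block, here knockout tumour 1 minus wild-type tumour 3, Mcm5 stood at -0.08, Mcm10 at -0.082 and Pold2 at -0.24.

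Whether replicate numbers pair the tumours was not settled. Deviations from the genotype mean correlated at r = 0.062, 0.26 and 0.14 for numbers 1, 2 and 3. Each knockout tumour correlated best with the wild-type tumour of its own number, while wild-type tumour 1 correlated best with knockout tumour 3 (r = 0.097). With the replicate block the median difference of the members was -0.29, 41 were below 0, 3 were lower at an unadjusted p under 0.05 and 0 passed the adjusted threshold, while the count over all features was 5 instead of 32.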
